A study of Mus musculus with 22 samples.

Results

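Carbonic anhydrases interconvert carbon dioxide and bicarbonate, and 8 mouse genes of this family, Car1, Car2, Car3, Car4, Car8, Car9, Car12 and Car13, were followed across 6 sorted cell types of the mouse colon crypt. The 8 genes were chosen as members of this family, not by a threshold on their values, and they are 8 of the 24421 genes in the count files. RNA sequencing was done on 22 libraries, 3 of stem cells (Stem), 3 of absorptive progenitors (AbsPro), 4 of a mixed population of secretory progenitors, deep crypt secretory cells and goblet cells (SecPDG), 5 of tuft cells (Tuft), 5 of enterocytes (Enterocyte) and 2 of enteroendocrine cells (EEC). All came from untreated wild type C57BL/6N males aged 5 to 7 weeks, so the groups differ in sorted cell type and in nothing else that the labels record. Live cells carrying Epcam but neither Cd31 nor Cd45 were separated by 3 further surface markers. Stem had the highest Cd44 with low Cd24 and no Ckit, AbsPro had medium to high Cd44 with low Cd24 and no Ckit, and SecPDG, by its label, had high Cd44 with medium Cd24 and medium Ckit, while the study's text describes its Cd44 as medium and Kit protein as detectable in tuft cells alone. Tuft carried Ckit and high Cd24, Enterocyte had little or no Cd44 and no Cd24, and EEC had little or no Cd44 but carried Cd24. Sorted samples were pooled as needed to reach at least 2500 cells. By the study's text, each Stem and AbsPro library came from a single mouse and each library of the other types from several. Comparisons of Stem or AbsPro with SecPDG, Tuft, Enterocyte or EEC thus set single mice against pools. Pooling cannot be told apart from cell type there.

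In the colon the absorptive cells take up sodium and chloride through paired exchangers, which need a supply of protons and bicarbonate that carbonic anhydrases provide inside the cell. The family members differ in place and in activity. Car1, Car2, Car3 and Car13 are cytosolic, Car4 is held on the outer face of the membrane by a lipid anchor, Car9 and Car12 cross the membrane with the catalytic domain outside, and Car8 lacks catalytic activity and binds the inositol trisphosphate receptor.

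Levels are given as normalised counts, which are counts per gene scaled by edgeR's TMM factors to a library of mean size. The libraries held between 4122122 (EEC 1) and 22462518 (Stem 2) counts on genes. The shallowest libraries were also those with most uniquely aligned reads outside genes, with 81.0% to 83.1% in Enterocyte 1, 2 and 3, 89.7% in EEC 1 and at most 68.8% elsewhere. As a measure of stray reads, 1544 genes gave a level per kilobase that is set beside low values below. They were olfactory and vomeronasal receptors, keratin-associated proteins and beta-defensins. Little use of these families in the sorted cells was assumed and was not tested. Where a cell type does use some of them, the stray-read levels given below are too high. The mean marker sums were highest in the cell type of that name for stem, tuft, goblet and enteroendocrine genes. Enterocyte markers were the exception, since 10 of them without any carbonic anhydrase summed to 35217 to 42041 in Enterocyte but to 85494 in EEC 2 and 20857 in EEC 1. Goblet markers were also high in Tuft, at 720518 to 1095440 against 726272 to 3071720 in SecPDG. In sorted bulk RNA, fewer cells of a type and less RNA per cell cannot be told apart.

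A gene was called different between a pair of cell types at an adjusted p under 0.01 (edgeR quasi-likelihood test, Benjamini-Hochberg adjustment over the 22781 genes tested) with a mean of at least 50 normalised counts over all libraries. All 8 genes passed the filter on low counts and were tested. The mean of 7 of them was at least 50, the exception being Car3 at 35.4. Over the 6 cell types together, those 7 differed by the same call rule, which 33.6% of all genes tested met (7653 genes). Only 13188 of the 22781 genes tested had the mean of at least 50 that the rule needs, so 33.6% understates the share among such genes. Car4 had the smallest adjusted p (2.05e-20), followed by Car8 (2.22e-16) and Car1 (7.05e-14), and Car2 had the largest of the 7 (0.00197).

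**Figure D1:**
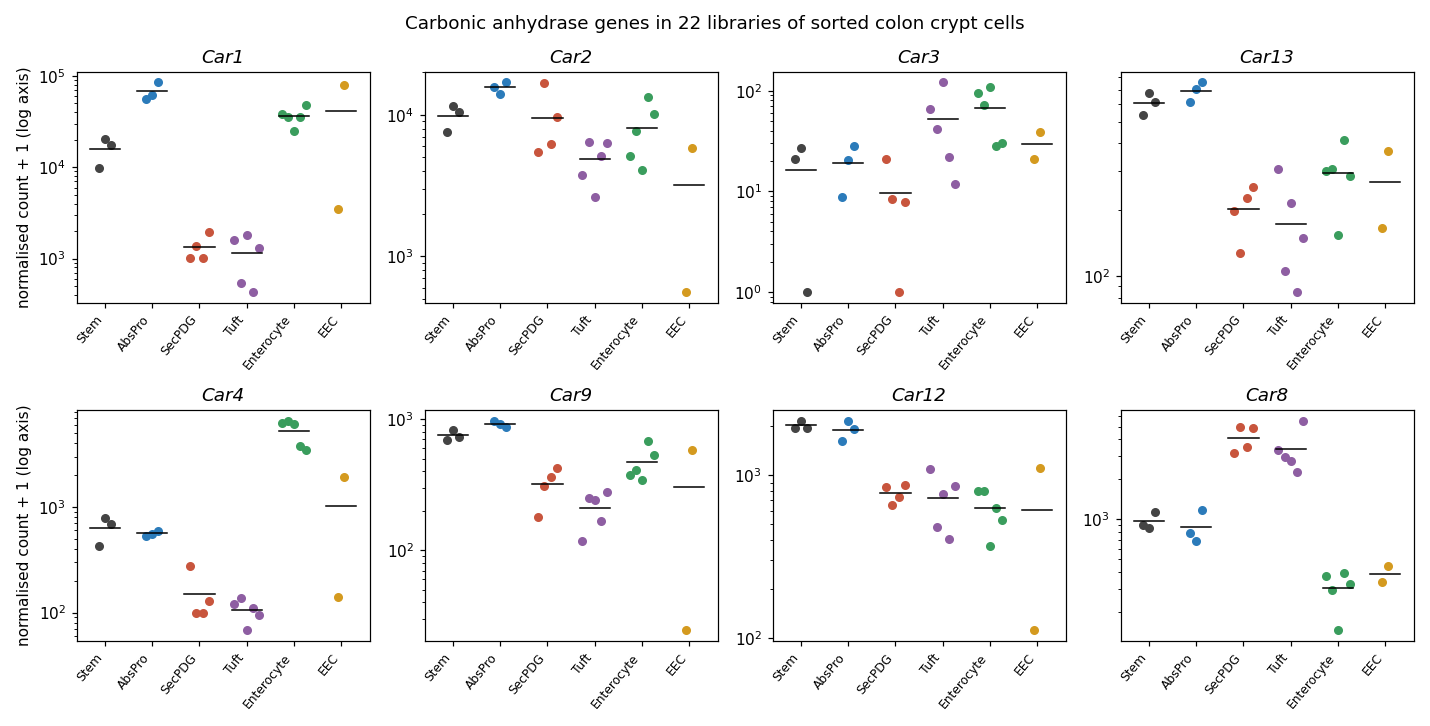
Normalised counts plus 1 on a log axis in each of the 22 libraries, 1 panel per gene, with the 6 cell types along the x axis. Points are libraries and bars are group means. Car1 was at 9784 or more in Stem, AbsPro and Enterocyte and at 1935 or less in SecPDG and Tuft, Car8 showed the opposite order between SecPDG or Tuft and Enterocyte, and the EEC pair was far apart for most genes.

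Car1, a cytosolic enzyme of low turnover that is abundant in colon epithelium and red cells, made up most of the family's transcripts per kilobase in Stem, AbsPro and Enterocyte. In Stem it was at 9784, 20153 and 17387 normalised counts, and in AbsPro at 55432, 62073 and 84904. In Enterocyte the 5 libraries gave 37935, 35594, 25139.5, 35673 and 47980. All AbsPro and Enterocyte libraries were thus above all Stem libraries. In SecPDG Car1 stood at 1024, 1359, 1022 and 1935, and in Tuft at 1601, 544, 1817, 430.1 and 1308. Every SecPDG and Tuft library was below the lowest of Stem, and these groups overlapped each other. Since red cells also hold Car1, red cell markers were read beside it. The 4 haemoglobin genes had at most 1 count in any library of any cell type. Counts this low everywhere cannot show whether a group held more or fewer red cells. Alas2, an enzyme of haem synthesis, was at 22.4 to 65.8 normalised counts in Stem libraries, at 16.2 to 32.8 in those of AbsPro, where Car1 was highest, and at 42.2 to 99.7 in those of Enterocyte. Slc4a1, the anion exchanger of red cells, reached at most 17.3 in Stem and 29.7 in AbsPro and was at 87.8 to 248.4 in Enterocyte. Their part in the Car1 levels was not tested.

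Car1 was 11.8-fold higher in Stem than in SecPDG (log2 fold change -3.57 ± 0.60 SE for SecPDG against Stem, edgeR adjusted p = 1.43e-05) and 13.8-fold higher than in Tuft (-3.79 ± 0.56, edgeR adjusted p = 5.5e-07). Between the progenitor populations the difference was 50.6-fold, with AbsPro above SecPDG (5.66 ± 0.65, edgeR adjusted p = 4.34e-09). AbsPro against Stem gave 2.10 ± 0.62 with a 95% interval of 0.86 to 3.34, and edgeR's adjusted p of 0.078 missed the threshold. Enterocyte against Stem gave 1.21 ± 0.56 (edgeR adjusted p = 0.055). Both of these values rest on a spread that all 22 libraries share, and the EEC pair, at 3466 and 79379, was the widest for Car1. Without EEC 1 the adjusted p was 8.82e-05 for AbsPro against Stem and 0.00466 for Enterocyte against Stem, and without EEC 2 it was 0.000692 and 0.00413. With DESeq2's size factors Enterocyte against Stem became 1.79 with an adjusted p of 0.00153.

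Car2, the fast cytosolic enzyme found in most epithelia, was the most evenly spread of the abundant members. Stem libraries held 7619, 11490.4 and 10518 normalised counts and AbsPro 15857, 14057 and 16986, with every AbsPro library above every Stem library. SecPDG ranged from 5484 to 16789, the highest being SecPDG 2. Tuft ranged from 2602 to 6465, below every Stem library. In Enterocyte, Car2 was at 5151.5, 7744 and 4057 in the libraries with most reads outside genes and at 13399 and 10064 in the other two, without overlap between these sets. The part of stray reads or of depth in that gap was not tested.

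None of the 5 comparisons with Stem called Car2. Tuft gave a log2 fold change of -1.02 ± 0.43 (edgeR adjusted p = 0.0588), and without EEC 1 its adjusted p was 0.00321. AbsPro gave 0.66 ± 0.49 with an interval of -0.32 to 1.64. Enterocyte gave -0.29 ± 0.43 with an interval of -1.16 to 0.58, and without Enterocyte 1, 2 and 3 and EEC 1 the estimate was 0.35. Among the other pairs of cell types Car2 was called in Tuft against AbsPro, where it was 3.21-fold lower (-1.68 ± 0.43, edgeR adjusted p = 0.00372) and 8.13% of all genes tested were called, and in EEC against AbsPro (-2.28 ± 0.60, edgeR adjusted p = 0.00202), where 18.3% were called.

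Car13, a further cytosolic enzyme, split Stem and AbsPro from the other cell types. It stood at 537, 671.5 and 611 in Stem and at 612.5, 702 and 754 in AbsPro. The highest of all other libraries was Enterocyte 4 at 414. SecPDG ranged from 127 to 252, Tuft from 84.0 to 306 and Enterocyte from 154 to 414. Every library of these groups was below every Stem and AbsPro library.

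The fall of Car13 from Stem was 2.99-fold in SecPDG (-1.58 ± 0.35, edgeR adjusted p = 0.000919), 3.57-fold in Tuft (-1.84 ± 0.34, edgeR adjusted p = 4.15e-05) and 2.08-fold in Enterocyte (-1.06 ± 0.32, edgeR adjusted p = 0.00474). The Enterocyte call was lost without Enterocyte 3 (adjusted p = 0.0214) and with DESeq2's size factors (-0.53, adjusted p = 0.0921), and the SecPDG call was lost without SecPDG 2 (adjusted p = 0.0115). AbsPro against Stem gave 0.18 with an interval of -0.48 to 0.84.

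Car3, a cytosolic enzyme of low activity typical of muscle and fat, was near the limit of what these libraries can show. Stem 3 and SecPDG 3 had no count, and the highest libraries were Tuft 3 at 120.1 and Enterocyte 3 at 109. A count of 0 allows up to 3 counts in that library, for counting error only. Stray reads alone would give 27.2% of the Enterocyte mean of 66.0 and 77.9% of the EEC mean of 28.7, as judged from the families assumed to be little used. Enterocyte 1, 2 and 3 held 93.7, 71.1 and 109, while Enterocyte 4 and 5, with fewer reads outside genes, held 27.4 and 29.1. Of the 8 adipocyte markers, 3 were at 0 in all Stem libraries and none in all Enterocyte libraries, and their sums were 36.4 to 54.4 in Stem and 200.7 to 479 in Enterocyte. The 8 muscle markers summed to 119.7 to 305 in Stem and 441 to 1256 in Enterocyte. The part of these in Car3 was not tested. Enterocyte against Stem gave a log2 fold change of 2.09 ± 0.75 (edgeR adjusted p = 0.0149), and without Enterocyte 1, 2 and 3 and EEC 1 it was 0.97 with an adjusted p of 0.531.

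On chromosome 3 of GRCm38 the 4 cytosolic genes lie in 1 cluster, in the order Car13, Car1, Car3 and Car2, within 259044 bases. Car1 (14766216 to 14808365) is on the minus strand and Car13 (14641727 to 14663002), Car3 (14863538 to 14872523) and Car2 (14886428 to 14900770) are on the plus strand. The gaps between them are 103213, 55172 and 13904 bases. Pearson's r of log2 CPM over the 22 libraries was 0.76 between Car13 and Car1, 0.37 between Car1 and Car2 and 0.48 between Car13 and Car2. These describe libraries that share cell types and depth. The other members lie apart, Car8 (8143362 to 8239041, minus strand) and Car9 on chromosome 4, Car12 (66713686 to 66766845, plus strand) on chromosome 9 and Car4 (84957788 to 84966044, plus strand) on chromosome 11.

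Car4, whose enzyme faces the lumen of the colon from the apical membrane, was highest in Enterocyte. The 5 Enterocyte libraries gave 6274, 6591, 6103, 3773 and 3491 normalised counts. Stem gave 428, 787 and 690.0 and AbsPro 525, 560.3 and 598. Enterocyte did not overlap either group, nor any other library, the next highest being EEC 2 at 1927. SecPDG was at 277, 98.2, 97.7 and 128 and Tuft at 121, 136, 67.0, 110.4 and 93.7. Both lay below every Stem and AbsPro library.

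Car4 was 8.23-fold higher in Enterocyte than in Stem (3.04 ± 0.40, edgeR adjusted p = 2.72e-08) and 9.36-fold higher than in AbsPro (3.23 ± 0.41, edgeR adjusted p = 7.2e-08). From Stem to AbsPro it gave -0.19 ± 0.42 with an interval of -1.03 to 0.66. Car1 and Car4 therefore had different profiles along the absorptive lineage, Car1 having its highest mean in AbsPro and Car4 in Enterocyte, though the gap between the profiles was not tested. Against Stem, Car4 was lower in SecPDG (log2 fold change -2.07 ± 0.45, edgeR adjusted p = 0.000865) and 6.06-fold lower in Tuft (-2.60 ± 0.45, edgeR adjusted p = 1.57e-05). The SecPDG call was lost without Stem 2 (adjusted p = 0.0189) or without SecPDG 2 (adjusted p = 0.0108). Enterocyte 1, 2 and 3 were all above Enterocyte 4 and 5, and without those 3 libraries and EEC 1 the estimate for Enterocyte against Stem was 2.62 with an adjusted p of 1.49e-09.

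The promoters of Car4, Car12 and Car9 are shown because RefSeq's table for GRCm38.p6 matched these 3 of the 8 genes. All 3 encode membrane enzymes, with Car4 highest in Enterocyte and the other 2 in Stem and AbsPro. The sequence printed is that before the annotated start, 250 bases for Car4 (chr11:84957504-84957753, plus strand) and Car12 (chr9:66713436-66713685, plus strand), and for Car9 the 190 bases before the earlier start that GENCODE gives (chr4:43506776-43506965, plus strand). The last line is the 30 bases just before the RefSeq start of Car9 (chr4:43506996-43507025), with a motif match in capitals.
Car4: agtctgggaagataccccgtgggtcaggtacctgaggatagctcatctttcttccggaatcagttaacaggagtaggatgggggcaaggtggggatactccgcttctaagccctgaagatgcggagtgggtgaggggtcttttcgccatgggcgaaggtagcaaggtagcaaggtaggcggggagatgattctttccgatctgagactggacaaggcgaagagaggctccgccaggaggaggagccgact
Car12: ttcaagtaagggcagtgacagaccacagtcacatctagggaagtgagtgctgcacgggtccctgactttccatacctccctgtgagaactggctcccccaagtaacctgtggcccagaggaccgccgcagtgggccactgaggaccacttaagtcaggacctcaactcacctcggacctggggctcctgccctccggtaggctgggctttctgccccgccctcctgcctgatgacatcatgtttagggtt
Car9: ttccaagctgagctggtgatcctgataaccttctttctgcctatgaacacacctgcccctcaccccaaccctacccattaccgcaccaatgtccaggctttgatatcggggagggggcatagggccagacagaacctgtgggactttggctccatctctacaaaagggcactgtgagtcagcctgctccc
Car9 before its RefSeq start: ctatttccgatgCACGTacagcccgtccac

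The capitals mark a match on the reverse strand to ACGTG, the core of sites bound by hypoxia-inducible factors. The match lies 18 bases before the RefSeq start of Car9, inside the transcript by the GENCODE start. This motif was searched on both strands in the 250 bases before each RefSeq start, and 16.6% of 32851 promoters held it. Neither Car4 nor Car12 did. AGATAA, the only form of the GATA motif that was searched, was present in 9.99% of all promoters and in none of the 3. The same held for the motif TTTATNG of CDX factors, which 9.81% of promoters contained. The TATA box, searched as TATAAA and present in 12.4%, was in none of them either.

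Car9, a transmembrane enzyme induced by low oxygen in many tissues, was highest in AbsPro and Stem. It stood at 696, 824.5 and 728 in Stem and at 974, 917 and 870.3 in AbsPro, so all AbsPro libraries were above all Stem libraries, by 0.30 ± 0.36 on the log2 scale (edgeR adjusted p = 0.952). Enterocyte held 376, 410, 343, 684 and 530.3, below every Stem library. SecPDG (180 to 425.0) and Tuft (117 to 277) had lower means and overlapped each other, and SecPDG also overlapped Enterocyte.

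Car9 was 3.53-fold lower in Tuft than in Stem (-1.82 ± 0.36, edgeR adjusted p = 0.000113). In SecPDG it gave -1.24 ± 0.36 with an adjusted p of 0.0188 by edgeR, which passed without EEC 1 (0.000657) or without EEC 2 (0.00213). AbsPro was 2.89-fold above SecPDG (1.53 ± 0.36, edgeR adjusted p = 0.0026), a call lost without AbsPro 2 (0.0103), SecPDG 1 (0.0255) or SecPDG 2 (0.0185). Enterocyte against Stem gave -0.68 ± 0.34 (edgeR adjusted p = 0.074), passed without EEC 1 (-0.86, 0.00225) and was -0.19 without the 4 libraries that had most reads outside genes. The exons of Car9 (chr4:43506966-43513729) share 145 bases with Gm12454 on the opposite strand, and counting disregarded strand, so reads of the pair cannot be told apart there.

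Car12, also a transmembrane enzyme and known from the basolateral side of colon epithelium, was likewise highest in Stem and AbsPro. Stem was at 1957, 2162 and 1943 and AbsPro at 1617, 2139.7 and 1913, with overlap. SecPDG gave 843, 650.3, 732 and 872, Tuft 404 to 1091 and Enterocyte 364 to 803. All of these libraries were below all Stem and AbsPro libraries. The fall from Stem was 2.60-fold in SecPDG (-1.38 ± 0.34, edgeR adjusted p = 0.00423), 2.80-fold in Tuft (-1.48 ± 0.33, edgeR adjusted p = 0.000548) and 3.25-fold in Enterocyte (-1.70 ± 0.33, edgeR adjusted p = 4.62e-05). The SecPDG call was lost without any 1 of Stem 1, 2 or 3 or of SecPDG 1, 2 or 3 (adjusted p from 0.0122 to 0.0318). The Enterocyte call was lost with DESeq2's Wald test (-1.11, adjusted p = 0.0122). With DESeq2's size factors it was kept at a smaller value (-1.13, edgeR adjusted p = 0.00213). In EEC the 2 libraries were at 110.3 and 1111 (-1.64 ± 0.45, edgeR adjusted p = 0.0024). The value was -1.03 without EEC 1 and -4.20 without EEC 2, so its size depends on 1 library. This EEC call was lost with DESeq2's Wald test (-1.33, adjusted p = 0.0171) and with DESeq2's size factors (-1.13, edgeR adjusted p = 0.0209). Stray reads would give 83.6 of the 110.3 normalised counts in EEC 1.

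Car8, a member without catalytic activity, was the only 1 of the 8 called higher than Stem in SecPDG and in Tuft. SecPDG held 3153, 4981, 3499 and 4914 normalised counts and Tuft 3347, 2925, 2727.5, 2291 and 5550. Stem held 906, 853 and 1141 and AbsPro 786, 685 and 1164. Each SecPDG and Tuft library was above each Stem and AbsPro library, and the SecPDG and Tuft ranges overlapped. In Enterocyte it was at 370.3, 290.3, 144, 392 and 324, below every library of the other 4 groups named here, and in EEC at 336 and 440.4.

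Against Stem, Car8 was 4.27-fold higher in SecPDG (2.10 ± 0.34, edgeR adjusted p = 6.47e-06) and 3.50-fold higher in Tuft (1.81 ± 0.33, edgeR adjusted p = 3.28e-05), and 3.19-fold lower in Enterocyte (-1.68 ± 0.35, edgeR adjusted p = 0.000102). Tuft against SecPDG gave -0.29 with an interval of -0.84 to 0.26. From SecPDG to EEC, 2 populations of the secretory lineage, Car8 was 10.5-fold lower (-3.39 ± 0.46, edgeR adjusted p = 4.67e-08). Stray reads would give 13.5% of the Enterocyte mean and 13.2% of the EEC mean, against 0.0629% in SecPDG. Goblet markers were high in both SecPDG and Tuft, and in Enterocyte they summed to 236035 to 692594 with Car8 at its lowest. Their part in the Tuft level was not tested.

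**Figure D2:**
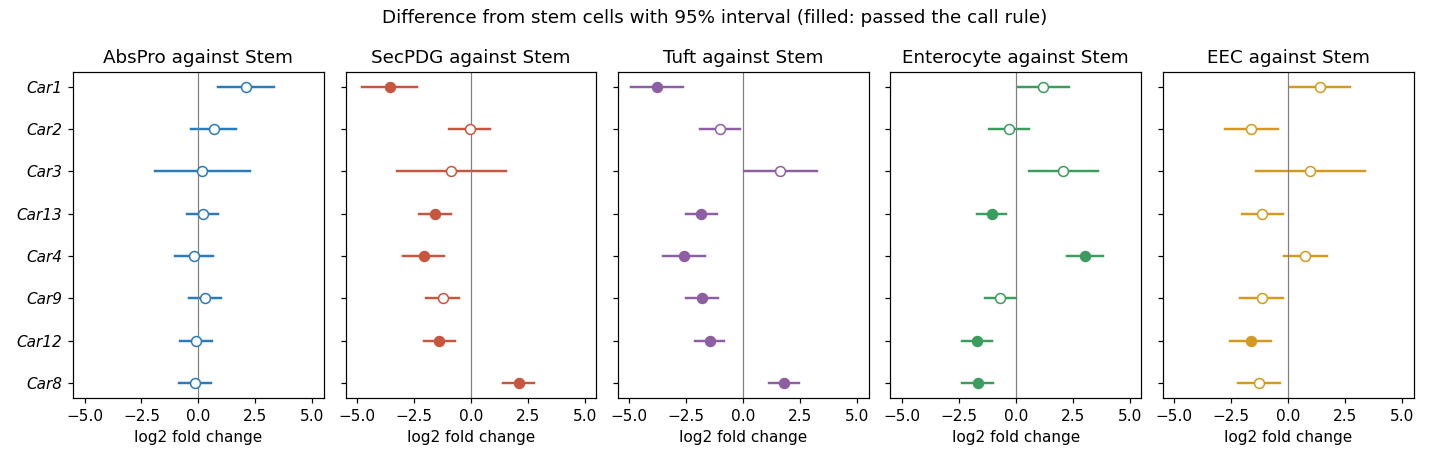
Log2 fold change of each gene against Stem (x axis, 1 panel per cell type) with its 95% interval from edgeR. Filled points passed the call rule. The filled point of Car8 lies to the right in SecPDG and Tuft while the filled points of 4 and 5 other members lie to the left, that of Car4 lies to the right in Enterocyte, and no point is filled in AbsPro.

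Counted over the family, AbsPro against Stem called 0 of the 8 genes by edgeR, where 0.588% of all genes tested were called (0.496% higher and 0.0922% lower). At an unadjusted p under 0.05 the count was 1 (Car1), and DESeq2 called 1. SecPDG against Stem called 5, of which Car8 rose and Car1, Car4, Car12 and Car13 fell, against 4.97% of all genes (3.38% higher and 1.59% lower). With library totals in place of TMM, 44.2% rather than 68.0% of the calls over all genes in this comparison were higher. Tuft against Stem called 6, with Car8 higher and Car1, Car4, Car9, Car12 and Car13 lower, against 12.1% of all genes (7.84% higher and 4.23% lower). In Enterocyte against Stem 4 were called, Car4 higher and Car8, Car12 and Car13 lower, against 22.2% (10.7% higher and 11.5% lower). Here the scaling mattered for the whole table, since 48.4% of all calls were higher with TMM, 75.6% with DESeq2's size factors and 71.0% with library totals. Without Enterocyte 1, 2 and 3 and EEC 1, Car4, Car8 and Car12 passed in this comparison, Car1 passed too (1.52, adjusted p = 0.000404) and Car13 did not (-0.68, adjusted p = 0.133). The median log2 fold change of the 8 genes was 0.17 in AbsPro, -1.31 in SecPDG, -1.65 in Tuft, -0.48 in Enterocyte and -1.15 in EEC. Over all genes tested it was 0, 0.00, 0.83, 1.17 and 0.68, and over the 13188 genes with a mean of at least 50 it was 0.04, -0.06, -0.09, -0.30 and -0.30, where DESeq2's size factors gave 0.0173, -0.0432, 0.204, 0.348 and 0.479.

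Ranges without overlap are frequent in groups of this size. Among all genes tested, the libraries did not overlap for 15.5% in AbsPro against Stem, 18.6% in SecPDG, 27.4% in Tuft, 57.1% in Enterocyte and 45.8% in EEC. The shares were 15.8% for AbsPro against SecPDG, 53.5% for Enterocyte against AbsPro, 11.4% for Tuft against SecPDG and 41.7% for EEC against SecPDG. The count of members without overlap with Stem was 3 of 8 in AbsPro, 6 in SecPDG, 7 in Tuft, 7 in Enterocyte and 5 in EEC.

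Between the progenitor populations, AbsPro against SecPDG called 5 of the 8 genes, with Car1, Car4, Car9 and Car13 higher in AbsPro and Car8 lower, against 3.72% of all genes tested (1.72% higher and 2% lower). Car12 gave 1.28 ± 0.35 (edgeR adjusted p = 0.0117) and passed without Tuft 4 (0.00842), Enterocyte 1 (0.00982), Enterocyte 3 (0.00952), EEC 1 (0.000516) or EEC 2 (0.000832). The Car4 call there (1.88 ± 0.46, edgeR adjusted p = 0.00426) was lost without any 1 of AbsPro 1, 2 or 3 or of SecPDG 2, 3 or 4 (adjusted p from 0.0172 to 0.047). Enterocyte against AbsPro called the same 4 genes in the same directions as Enterocyte against Stem, which shares its Enterocyte libraries, Car4 higher and Car8, Car12 and Car13 lower, against 16.2% (8.21% higher and 7.97% lower). In that comparison Car12 fell 3.04-fold (-1.60 ± 0.33, edgeR adjusted p = 0.000249) and Car8 2.89-fold (-1.53 ± 0.35, edgeR adjusted p = 0.000671). The Car12 value was -1.02 with DESeq2's size factors (edgeR adjusted p = 0.00655), and DESeq2's Wald test did not call it (-0.998, adjusted p = 0.0285). Car13 fell 2.36-fold (-1.24 ± 0.32, edgeR adjusted p = 0.00209), a call lost without AbsPro 2 (0.0103) or Enterocyte 3 (0.0108). It was also lost with DESeq2's size factors (-0.70, edgeR adjusted p = 0.0357) and with library totals (-0.74, edgeR adjusted p = 0.03). Without Enterocyte 1, 2 and 3 and EEC 1, the Car8 and Car13 calls were lost (adjusted p = 0.0176 and 0.087). Car1 and Car2 gave -0.89 ± 0.52 and -0.95 ± 0.43 there and were not called, and without EEC 1 both were (adjusted p = 0.00239 and 0.000509). Car9 gave -0.97 ± 0.33 (edgeR adjusted p = 0.0139) and passed without any 1 of 8 libraries, Stem 2 or 3, AbsPro 3, Tuft 4, Enterocyte 1 or 4 and EEC 1 or 2 (adjusted p from 0.000106 to 0.00636). Tuft against SecPDG called 0 by edgeR and by DESeq2, against 3.37% (3.02% higher and 0.351% lower), with 2 members (Car2 and Car3) at an unadjusted p under 0.05. Car2 there passed without EEC 1 (-0.98, adjusted p = 0.00805).

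Car1, Car4 and Car8 were the members called between Enterocyte and both SecPDG and Tuft. Enterocyte against SecPDG called Car1 (4.77 ± 0.60) and Car4 (5.11 ± 0.42) higher and Car8 (-3.77 ± 0.32) lower, against 23.3% of all genes tested. Enterocyte against Tuft called these 3 in the same directions, with Car4 49.9-fold higher and Car8 11.2-fold lower, against 8.43%. EEC against Tuft called them too (5.18 ± 0.61, 3.36 ± 0.49 and -3.10 ± 0.45), against 9.3%. EEC against Enterocyte called Car4 alone, lower in EEC (-2.28 ± 0.46), against 4.69% of all genes, and EEC against AbsPro called Car2, Car9 and Car12, all lower in EEC, against 18.3%. Tuft against AbsPro called 7 of the 8, all but Car3, with Car8 higher and the other 6 lower, Car1 by 59.1-fold, against 8.13% of all genes.

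The 2 EEC libraries lay far apart for most members. EEC 1 and EEC 2 were at 3466 and 79379 for Car1, at 557 and 5791 for Car2 and at 139 and 1927 for Car4. For Car9 they were at 23.5 and 585. EEC 2 was the higher of the pair for all 8 genes. It also had the higher sums of enterocyte (85494 against 20857), enteroendocrine (1736630 against 601896), goblet (61791 against 36713) and tuft markers (8406 against 4044). In EEC 1 the sums of stromal (3442 against 2268), muscle (2914 against 933) and immune markers (3113 against 670) were higher. So were those of adipocyte (1002 against 181), endothelial (1858 against 1303) and stem markers (2515 against 2088). EEC 1 held 4122122 counts on genes and EEC 2 13132315, with TMM factors of 1.84 and 0.858. The part of depth or scaling in the gap was not tested. The red cell marker Alas2 was at 401 in EEC 1 and 3088 in EEC 2. It made up most of the sum of the 7 red cell markers found, 595 and 3134, with 5 of them at 0 in each library. The rest of that sum was smaller in EEC 2, so the rise is that of 1 gene. The part of red cells in the gap was not tested. EEC against Stem called 1 of the 8 genes, Car12, against 19.9% of all genes tested (10.8% higher and 9.13% lower), and EEC against SecPDG called 3, Car1 and Car4 higher and Car8 lower, against 21.2% (11.2% higher and 10.1% lower). Of all calls in EEC against Stem, 54.2% were higher with TMM and 77.5% with DESeq2's size factors. With EEC 2 left out, Car1 against Stem turned from 1.39 to -2.19 (edgeR adjusted p = 0.00403) and Car4 from 0.76 to -2.20 (0.00591), so their direction in EEC depends on 1 library. Without EEC 1 they were 2.17 (0.000179) and 1.43 (0.00588). Against SecPDG, Car1 gave 4.96 ± 0.66 with both libraries and 1.38 with an adjusted p of 0.0263 without EEC 2, and Car4 gave 2.83 ± 0.49 and then -0.13. Car2 and Car9 against Stem were -4.15 and -4.99 without EEC 2 and -0.93 and -0.52 without EEC 1. The value of -4.99 rests on 23.5 normalised counts of Car9 in EEC 1, under the 45.5 that stray reads would give there. Car8 against Stem was -1.29 without EEC 1 and -1.53 without EEC 2, neither of them called, and it passed without any 1 of Stem 2, AbsPro 1 or 3, Tuft 4 or Enterocyte 1 (adjusted p from 0.00288 to 0.00582). Car2 against Stem passed without EEC 2 or any 1 of AbsPro 1 or 3, Tuft 4 or Enterocyte 1 (adjusted p from 6.5e-06 to 0.00729).

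Per kilobase of exon, which allows levels of different genes to be set side by side, Car1 made up 62.1% of the 8 genes' transcripts in Stem, 83.2% in AbsPro and 75.4% in Enterocyte. In SecPDG and Tuft its share was 14.0% and 18.8%, and Car2 was the main member with 63.9% and 54.1%. Car8 was the next contributor there besides Car1, at 14.0% in SecPDG and 17.1% in Tuft, against 0.201% in Enterocyte. Car4 reached 11.4% in Enterocyte and at most 2.73% as a group mean elsewhere. The 8 genes together held 0.570% of counts on genes in AbsPro, 0.482% in Enterocyte, 0.208% in Stem, 0.0914% in SecPDG and 0.0746% in Tuft. Car3, Car9, Car12 and Car13 were minor members throughout, none above 3.92% as a group mean.

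**Figure D3:**
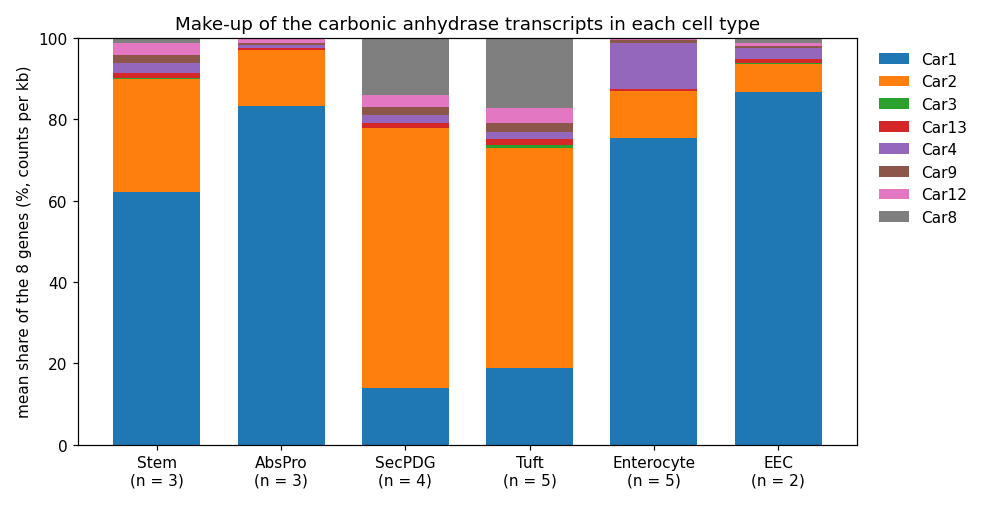
Stacked bars of the mean share of each gene in the summed counts per kilobase of the 8 genes (y axis, percent), for each cell type, with the number of libraries. Car1 takes 62.1% to 86.7% in Stem, AbsPro, Enterocyte and EEC, and Car2 takes 63.9% and 54.1% in SecPDG and Tuft.

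In the order of group means, most neighbouring cell types did not pass the call rule. For Car1 the order was AbsPro, EEC, Enterocyte, Stem, SecPDG and Tuft, and the call rule separated only Stem from SecPDG among these neighbouring pairs. Car4 fell from Enterocyte to EEC (edgeR adjusted p = 0.000258, in a comparison that called 4.69% of all genes) and from AbsPro to SecPDG. Car8 fell from Tuft to Stem, and Car13 from Stem to Enterocyte. No neighbours of Car2, Car3, Car9 or Car12 in their orders passed the call rule.

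The other 8 carbonic anhydrase genes had low levels in most cell types. Car15, a lipid-anchored enzyme, was the only 1 with a mean of at least 50 (53.7), and no comparison with Stem called it. Its group means ran from 26.7 in SecPDG to 71.6 in AbsPro. The mitochondrial Car5a and Car5b, the secreted Car6, the cytosolic Car7, the transmembrane Car14 and the acatalytic Car10 and Car11 had means over all libraries between 8.10 and 43.4. Car11 was at 166 and 195 normalised counts in EEC, above its Stem libraries (at most 9.60) and with stray reads equal to 11.7% of the EEC mean. Its difference from Stem was 5.25 ± 0.88 on the log2 scale (edgeR adjusted p = 2.38e-06), and it was not called because its mean over all libraries is under 50. Car14 was at 91.0 and 133.8 in EEC, with stray reads equal to 20.3% of the mean. In the same cell type, stray reads would give 132% of the Car5b mean and 114% of that of Car5a.

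Car1, Car2 and Car4 work beside transporters of bicarbonate, chloride and protons, and 21 such genes were counted as a list. Enterocyte against Stem called 8 higher and 2 lower (median log2 fold change 0.48, against 1.17 over all genes tested and -0.30 over those with a mean of at least 50). Atp12a, the colonic proton and potassium pump, rose by 8.13 ± 0.53 (edgeR adjusted p = 1.4e-18) and Slc9a3, the apical sodium and proton exchanger, by 6.45 ± 0.64 (edgeR adjusted p = 5.75e-12). Slc26a3, the apical chloride and bicarbonate exchanger, rose 6.75-fold. Slc12a2, the basolateral sodium, potassium and chloride carrier of secretion, fell by 2.98 on the log2 scale. Tuft against Stem called 4 higher and 7 lower, against 7.84% and 4.23% of all genes tested. Slc26a3 was among the lower ones at -2.51 ± 0.48 (edgeR adjusted p = 6.84e-05).

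Slc9a3 and Slc26a3 were also the 2 transport genes called in AbsPro against Stem, both higher, by 4.62 ± 0.78 (edgeR adjusted p = 0.000141) and 2.24 ± 0.42 (edgeR adjusted p = 0.000951). Atp12a was at 26.2 in AbsPro and 3572 in Enterocyte as group means, so that Enterocyte was the highest group for Atp12a and for Car4. In AbsPro against Stem, 0.496% of all genes tested were called higher. SecPDG against Stem called 2 transport genes higher and 5 lower, against 3.38% and 1.59% of all genes tested. Best2, a bicarbonate-permeable channel of goblet cells, rose by 6.15 ± 0.62 there (edgeR adjusted p = 2.59e-11).

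Since Car9 is a known target of low oxygen, 12 further hypoxia-induced genes were counted. Enterocyte against Stem called 9 of them higher and none lower, with a median of 1.73 against the same 1.17 and -0.30. Car9 itself was lower in all 5 Enterocyte libraries than in all 3 Stem libraries, and 57.1% of all genes tested had no overlap there. It was not called (-0.68, edgeR adjusted p = 0.074), and with DESeq2's size factors it gave -0.16. Pfkfb3, a regulator of glycolysis, rose by 3.50 ± 0.54 (edgeR adjusted p = 9.74e-07) and Bnip3, a mitophagy receptor, by 3.46 ± 0.73 (edgeR adjusted p = 0.000135). Stray reads would give 19.2% and 17.3% of their Enterocyte means. Tuft against Stem called 5 higher and none lower (median 0.61, against 0.83 over all genes tested and -0.09 over those with a mean of at least 50), and Pfkfb3 rose by 5.33 ± 0.49 (edgeR adjusted p = 7.73e-13), while Car9 fell there. SecPDG against Stem called 4 higher, and AbsPro against Stem 1, Ndrg1, a stress-response gene, at 1.83 ± 0.42 (edgeR adjusted p = 0.00864). Of all genes tested, 10.7% were called higher in Enterocyte, 7.84% in Tuft, 3.38% in SecPDG and 0.496% in AbsPro against Stem. All 12 genes of the list had a mean of at least 50, as did 13188 of the 22781 genes tested. No difference between Car9 and this list was tested.

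**Figure D4:**
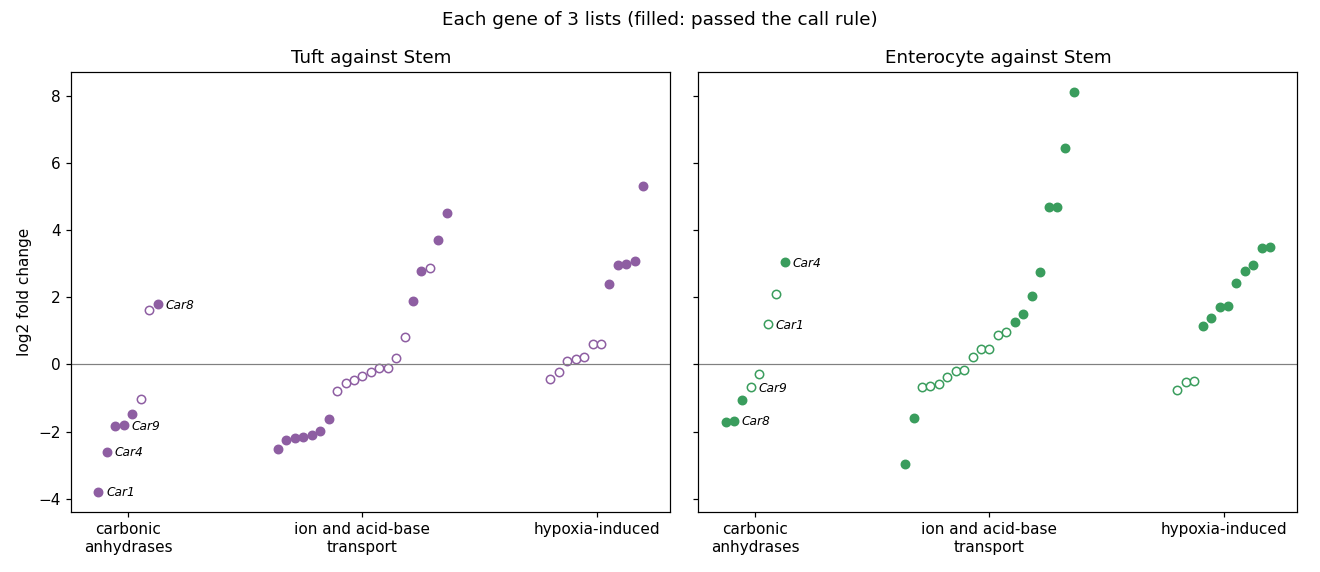
Log2 fold change against Stem (y axis) of every gene of 3 lists, for Tuft and Enterocyte. Each point is 1 gene, filled where it passed the call rule. The hypoxia-induced genes called lie above 0 in both panels, with Car9 below 0 and called in Tuft alone. The transport genes spread from -2.98 (Slc12a2) to 8.13 (Atp12a) in Enterocyte.

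The genes with levels most like each member were taken as those of highest Pearson's r of log2 CPM over the 22 libraries, among 13187 genes with a mean of at least 50. All points share libraries, depth and cell type, and no test was made. For Car1 these were Mep1a (0.973), an apical metalloprotease, Cyp2c55 (0.970) and the phosphate transporter Slc20a1 (0.966). Car4 was closest to Sectm1b (0.945), Prdx6 (0.923), an antioxidant enzyme, and Cyp3a13 (0.911). Car8 was closest to 5330417C22Rik (0.956), Ergic1 (0.956) and Pvrl1 (0.952). The 3 of Car12 were Vdr (0.940), the vitamin D receptor, Nsun5 (0.931) and BC021891 (0.922).

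Car2 was closest to Ppp2r5a (0.938) and to Cox4i1 (0.932), a subunit of cytochrome oxidase. Car9 had Cdc42ep5 (0.959), Ugt1a6a (0.945) and Ano9 (0.940), and Car13 had Gstm3 (0.954), Cth (0.927) and Lmo4 (0.921). Among the members themselves the highest r was 0.870, between Car2 and Car9, and the lowest was -0.859, between Car4 and Car8.

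Use of the distal polyadenylation site was given for 7 of the 8 genes, as the share of transcripts that end at the distal site, a fraction estimated per library. The libraries of those tables carry no number that ties them to the count libraries, and the shares are given without a test. For Car1 the mean share was 0.11 (SD 0.01, n = 3) in Stem and 0.132 (SD 0.0179, n = 5) in Enterocyte, and the AbsPro libraries lay between 0.12 and 0.15. Car2 averaged 0.267 (SD 0.0404, n = 3) in Stem. Separate comparisons with Stem gave a range of 0.28 to 0.36 in SecPDG (n = 4) and of 0.08 to 0.22 in EEC (n = 2). Car8, in the table that compares SecPDG with Stem, lay between 0.11 and 0.16 in SecPDG and between 0.16 and 0.2 in Stem, and in Tuft between 0.10 and 0.26. Car4 averaged 0.164 (SD 0.0737, n = 5) in Enterocyte and was at 0.15 and 0.49 in the 2 Stem libraries with a value. Car9, Car12 and Car13 had values with a wide spread, from 0.14 to 1 for Car9 in AbsPro.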

How the data were processed

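RNA of 22 libraries of sorted colon crypt cells was analysed, grouped by their deposited labels. The deposited files hold raw counts per gene, which the authors made with STAR 2.5.2a on mm10 and HTSeq 0.6.1p1 without strand. The authors also deposited fractions, the distal polyadenylation site shares from DaPars. Deposited splicing tables and the authors' own comparison columns (differences and p-values) were not used. The 5 rows that name no gene held 54.0% to 91.6% of reads and were left out. Counts were fitted with edgeR 4.0.16 in R 4.3.3 (filterByExpr, TMM, glmQLFit), all 6 cell types in 1 model. Of edgeR's spread estimates the current one (legacy = FALSE) was used. This choice was made with the calls of both versions known, and the earlier one called fewer genes. Intervals are 95%. Exon lengths came from GENCODE M21 (GRCm38) and promoters from RefSeq. Likeness used log2 CPM with a prior count of 2. The code was tested on simulated data, where its first test missed its preset share of changed genes recovered and was replaced by tests of error, direction and recovery by size. Small changes were often not called there, so a gene not called is not shown to be unchanged. Genes named are all members, the 3 most like each, and at most 6 per list, those with the largest called changes in Enterocyte or Tuft against Stem. One gene that this rule names for Car2 and one red cell marker are not reported here. Car11, Car14, Car15, Alas2, Slc4a1 and Ndrg1 in AbsPro were named after their values were seen. Members and lists were chosen with earlier results of these data known. Alternatives were DESeq2 1.42.0, other scalings, filters, thresholds and libraries left out, and, chosen after seeing the data, the earlier spread estimate and leaving out 4 libraries together.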

Additional observations from a re-analysis of the deposited data

Results flagged for a closer look

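Of 24 sets of SecPDG, Tuft or Enterocyte libraries examined (8 genes in 3 cell types), 1 held a library far from the others by Dixon's 95% limit, which chance gives in about 1 of 20 sets. Car4 in SecPDG 1 was at 277 normalised counts, against 97.7 to 128 in the other 3 SecPDG libraries. Its gap of 0.829 of the range was just above the limit. Without SecPDG 1, the difference for Car4, SecPDG against Stem, was -2.56 ± 0.52 on the log2 scale (edgeR adjusted p = 0.000479), against -2.07 with it.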

How the results depend on the processing

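The number of members called moved with several settings. Of 28 called gene results, 256 of 280 values under other settings and 592 of 616 with 1 library left out kept call and direction. The 616 take in all 22 libraries for each result, most of them from neither compared cell type. They therefore say less about the compared libraries than their number suggests at first sight. With edgeR's earlier spread estimate, chosen as an alternative after both versions' calls had been seen, the counts were 3 for SecPDG against Stem, 0 for EEC against Stem and 3 for AbsPro against SecPDG. DESeq2's Wald test gave 1 for AbsPro against Stem and 2 for Enterocyte against AbsPro. Fitting 2 cell types only gave 1 for AbsPro and 0 for EEC against Stem. EEC against Stem gave 2 with library totals, 2 with no filter and 5 at an adjusted p under 0.05. Without the 4 libraries with most reads outside genes, the counts were 1 for AbsPro against Stem, 2 for EEC against Stem, 2 for Enterocyte against AbsPro and 1 for Tuft against SecPDG. With 1 library left out, counts ranged over 0 to 1 (AbsPro against Stem), 2 to 6 (SecPDG against Stem), 1 to 5 (EEC against Stem), 3 to 6 (AbsPro against SecPDG), 3 to 7 (Enterocyte against AbsPro) and 0 to 1 (Tuft against SecPDG). Reversed values, all without EEC 2, were ranges from -2.19 to 2.17 for Car1 and -2.20 to 1.43 for Car4 (EEC against Stem), and -0.13 to 3.43 for Car4 and -3.76 to 0.67 for Car9 (EEC against SecPDG). The causes were not tested.

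Whether the replicate numbers pair the samples was not settled. Of 44 same-numbered pairs, 14 had a correlation of deviations above 0.1 (range -0.391 to 0.501). Pairs of unlike number were not computed beside them, so this cannot decide the question, and the main fit used no pairing. With the number as a block, the members called were 6 for SecPDG against Stem (Car9 added), 7 for Tuft against Stem (Car2), 2 for EEC against Stem (Car2), 6 for Enterocyte against AbsPro (Car2 and Car9) and 4 for EEC against SecPDG (Car2), and no call was lost.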
